A study of Mus musculus with 79 samples.

Results

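Quadriceps transcripts were compared between BXD strains with high and with low Pdk4 on chow diet (CD). The strains were chosen by their Pdk4 value: the 42 CD arrays were ranked on the 1 Pdk4 probeset, and the 14 highest and 14 lowest were compared across all other named genes, which uses 28 of 42 CD arrays and of 79 arrays in all. The animals were males of the BXD family, inbred lines bred from the intercross of the strains C57BL/6J and DBA/2J, plus both parents, and were killed at 29 weeks after an overnight fast. Each array was hybridised with 1 RNA pool of about 5 males of 1 strain on 1 diet, so the strain was the replicate and variation among its mice was averaged out. The high group held BXD43, BXD44, BXD48, BXD50, BXD51, BXD55, BXD61, BXD62, BXD70, BXD73, BXD79, BXD83, BXD98 and BXD100. The low group held C57BL/6J, DBA/2J, BXD45, BXD49, BXD63, BXD65, BXD68, BXD69, BXD84, BXD85, BXD87, BXD92a, BXD95 and BXD101. All 28 pools were on chow throughout. On high fat diet (HFD), begun at 8 weeks, 13 of the high and 11 of the low strains had an array as well, and these arrays took no part in the ranking.

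Pdk4 encodes pyruvate dehydrogenase kinase 4, which phosphorylates and thereby switches off the pyruvate dehydrogenase (PDH) complex, the gate through which glycolytic carbon enters the mitochondrial citric acid cycle. In fasted muscle Pdk4 is induced when insulin is low and glucocorticoids and circulating fatty acids are high. FOXO transcription factors, the glucocorticoid receptor and peroxisome proliferator-activated receptors (PPARs) are its best known activators. The same regulators drive muscle ubiquitin ligases, autophagy genes and genes that handle fatty acids.

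To show the promoters of genes that share these regulators, the 250 bases before the annotated start of Pdk4 and of 2 other genes of the fasting response are printed, from RefSeq on build GRCm38.p6. They are Trim63, a muscle ubiquitin ligase, and Ucp3, a mitochondrial carrier. Capitals mark 3 short motifs on either strand: GTAAACA, the core bound by FOXO factors, AGAACA, the core hexamer of glucocorticoid response elements, and AGGTCA, the hexamer found in elements that PPARs bind.

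Pdk4, chr6:5496279-5496528, minus strand: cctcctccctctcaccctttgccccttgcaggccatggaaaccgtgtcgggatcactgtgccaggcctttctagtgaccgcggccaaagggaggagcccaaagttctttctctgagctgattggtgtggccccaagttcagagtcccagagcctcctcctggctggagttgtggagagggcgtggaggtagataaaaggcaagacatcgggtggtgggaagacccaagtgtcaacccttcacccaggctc
Trim63, chr4:134314870-134315119, plus strand: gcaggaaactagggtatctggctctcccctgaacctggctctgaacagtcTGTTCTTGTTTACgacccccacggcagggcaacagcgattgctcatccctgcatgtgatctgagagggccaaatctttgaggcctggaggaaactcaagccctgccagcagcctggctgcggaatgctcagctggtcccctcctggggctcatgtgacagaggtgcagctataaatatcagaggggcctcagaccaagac
Ucp3, chr7:100472741-100472990, plus strand: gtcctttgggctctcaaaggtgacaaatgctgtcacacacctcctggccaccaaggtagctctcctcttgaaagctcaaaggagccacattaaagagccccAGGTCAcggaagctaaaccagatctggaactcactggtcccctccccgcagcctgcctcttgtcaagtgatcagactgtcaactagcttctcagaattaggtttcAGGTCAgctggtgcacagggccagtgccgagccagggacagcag

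The Trim63 window held the glucocorticoid hexamer, as TGTTCT, directly followed by the FOXO core, as TGTTTAC, with no overlap. The Ucp3 window held 2 copies of AGGTCA. These letters were not in the Pdk4 window. Over the 15988 genes of the array with such a window, GTAAACA was in 3.13%, AGAACA in 15.4% and AGGTCA in 14.5%. A match describes the sequence and does not show that a factor binds there.

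The array values were deposited as scores, set to a mean of 8.0 and a standard deviation (SD) of 2.0 on each array. The scores behave like logarithms of unknown base, so differences are given in units and not as folds. Pdk4 lay between 14.579 and 14.778 units on the 14 high arrays, with a median of 14.643. On the 14 low arrays it lay between 13.704 and 14.473, with a median of 14.277. The means were 14.65 ± 0.06 and 14.22 ± 0.26 (SD, n = 14 each), and the 0.43 between them is what the ranking made and carries no test. The low group was the more spread of the pair. In it BXD101 at 13.997, BXD68 at 13.719 and C57BL/6J at 13.704 lay below the rest, which ran from 14.132 to 14.473. At the edges the ranking split near neighbours: BXD51 at 14.579 was in the high group and BXD71 at 14.572 was not, while BXD92a at 14.473 was in the low group and BXD97 at 14.475 was not.

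**Figure D1:**
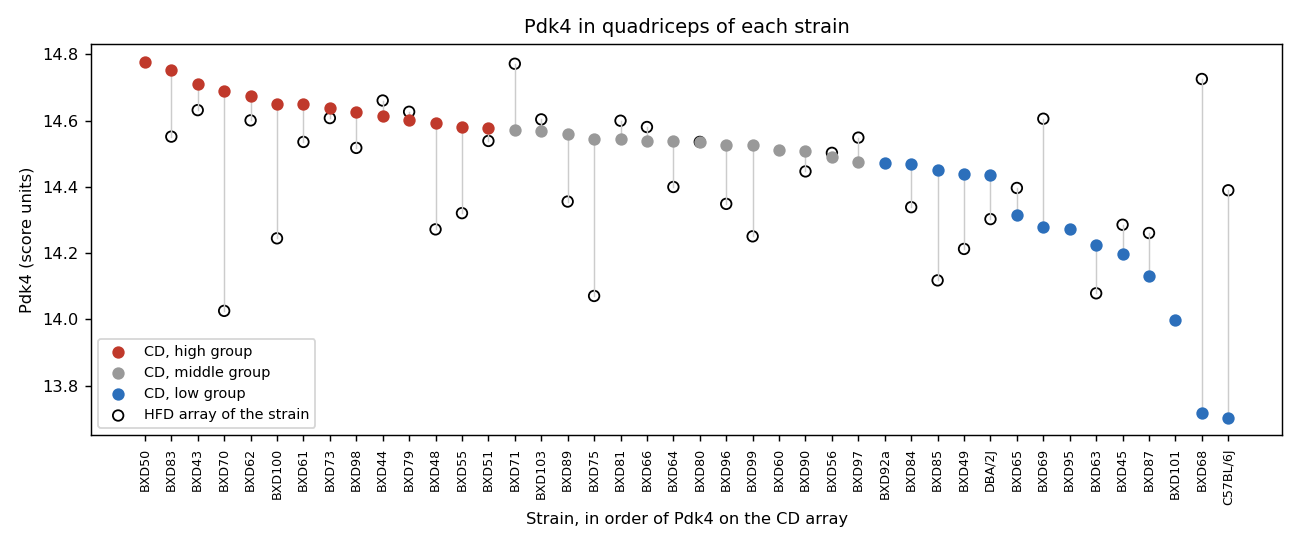
Pdk4 (score units, vertical axis) on the CD array of each of 42 strains (filled points, coloured by group) in order of that value, with the HFD array of the same strain as an open circle joined by a line where there is one. The CD points run from 14.778 (BXD50) down to 13.704 (C57BL/6J), and the HFD circles do not follow that order.

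Pdk4 on HFD arrays, which were not ranked, did not separate the groups. In the 13 high strains it ran from 14.026 to 14.661 with a median of 14.539, and in the 11 low strains from 14.079 to 14.726 with a median of 14.303. The 2 ranges overlapped almost wholly, since the low strain BXD68 had the highest value and the high strain BXD70 the lowest, although the medians lay apart. The limma difference was 0.14 ± 0.08 (standard error, SE; p = 0.0894, adjusted p = 0.908), and a two-sided permutation test of the means with 100000 draws gave p = 0.103.

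The same comparison was read within each of the array batches that the titles give. Within batch 1 the high strains averaged 14.54 and the low strains 14.29 (7 arrays each, two-sided exact permutation p = 0.00524). Within batch 2 they averaged 14.40 and 14.42 (6 and 4 arrays, exact permutation p = 0.895). Without the low strains under 14 units on CD, of which BXD68 and C57BL/6J had HFD arrays, the difference was 0.18 (permutation p = 0.0325). A difference between batches was not tested.

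The order of strains in Pdk4 was only weakly shared between diets. Over the 37 strains with both arrays, Pearson's r was 0.069 (permutation p = 0.692) and Spearman's rho 0.276 (permutation p = 0.0978). With C57BL/6J and BXD68 left out, which lay farthest from the median on CD, Pearson's r rose to 0.338 (permutation p = 0.0461), so the pooled value depends on those strains. Within batches r was 0.573 over the 12 strains with both arrays in batch 1 and -0.317 over the 17 with both in batch 2.

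With the strains split by Pdk4 on CD, 14 of 21 FOXO and atrophy genes, 9 of 19 glucocorticoid-responsive genes and 6 of 16 PPAR-responsive lipid genes were higher in the high strains. Scd2, Tfrc, 4 of 7 fibroblast markers and 3 of 8 macrophage markers were lower. Of 22334 genes tested with limma on the 28 CD arrays, with batch as a term, 867 passed an adjusted p of 0.05, which is 3.88%. Of these, 221 genes (0.99%) were higher and 646 (2.89%) were lower in the high strains. The split varied with the setting, from 170 higher and 768 lower with arrays centred on their median, through 268 and 562 with arrays quantile normalized again, to 222 and 267 with 10 against 10 strains. Batch 1 alone gave 106 calls, 58 higher and 48 lower, and batch 2 alone 166, 48 higher and 118 lower. Of the 867 genes 434 were called whichever array was left out, and without BXD44, the array that changed the count most, 502 were called. The groups were cut from the same arrays, so anything that acts on many genes of an array moves with them.

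Markers of fibroblasts and macrophages moved with the groups on CD. The mean of 7 fibroblast markers lay between 10.10 and 10.58 in the high strains (median 10.29) and between 10.40 and 10.71 in the low strains (median 10.56). The mean of 8 macrophage markers lay between 8.13 and 8.69 in the high strains (median 8.45) and between 8.49 and 8.82 in the low strains (median 8.69). Both marker sets overlapped between the groups, with the low strains toward the top of the range. Every one of the 7 fibroblast markers had a negative difference, and Col1a2, Col3a1, Lum and Fbn1, which encode matrix proteins, were called. All 8 macrophage markers had a negative difference too, and Csf1r, Mrc1 and Lyz2 were called. In bulk muscle, fewer cells of a type and less RNA per cell cannot be told apart.

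With the macrophage mean as a further term 339 genes were called, and with the fibroblast mean 38, of which 19 were higher and 19 lower. The fibroblast term left the sign of 856 of the 867 differences as it was. At the median it took a difference to 0.901 of its size and raised its SE 1.44 times. Fbxo32, Trim63, Ucp3, Plin4, Glul, Scd2 and Tnfaip2 kept most or all of their differences under it, with values of 0.54, 0.85, 0.87, 0.59, 0.72, -0.80 and -0.74 units. All of these but Scd2 (adjusted p = 0.0708) were still called. Calls were lost for Cebpd (adjusted p = 0.099), Fkbp5 (0.161), Cdkn1a (0.189), Foxo3 (0.283), Odf3l2 (0.431), Foxo1 (0.513) and Ddit4 (0.573), whose differences under the term lay between 0.28 and 0.83 units. Both means moved with the groups, so these fits cannot tell the part of fibroblast and macrophage content in the calls apart from the Pdk4 split.

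**Figure D2:**
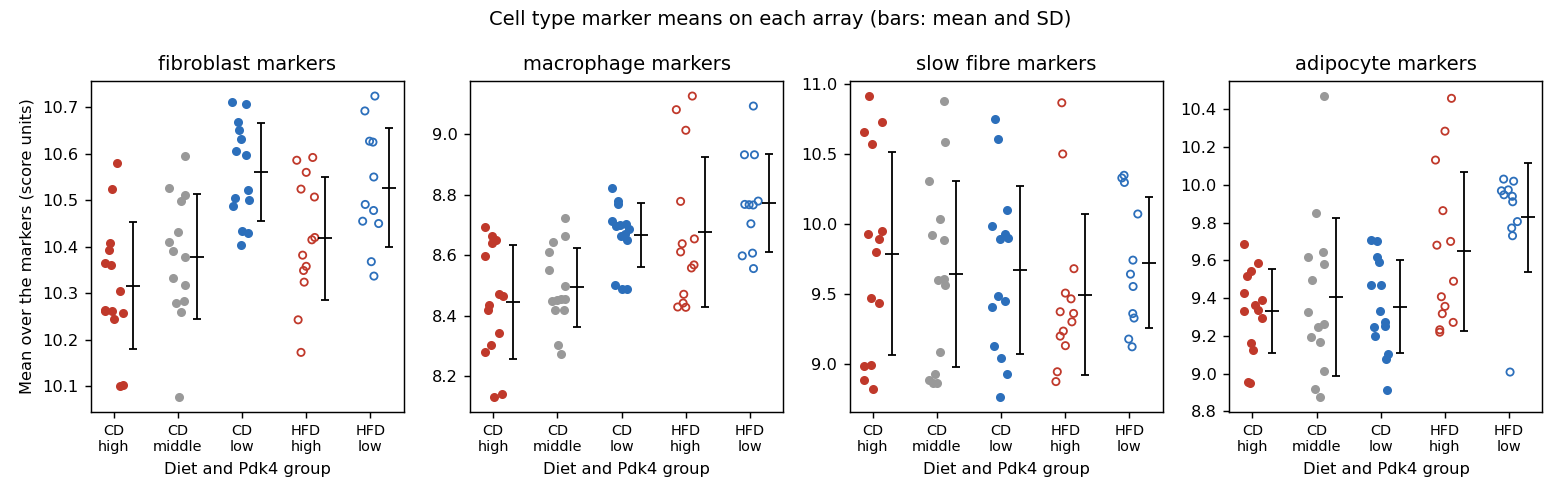
Mean score over 4 sets of cell type markers on each array (score units, vertical axis; filled CD, open HFD; red high, grey middle, blue low Pdk4 strains), with the mean and SD as bars. Fibroblast and macrophage means were lower in the high strains on CD arrays, with medians of 10.29 against 10.56 and 8.45 against 8.69, while slow fibre and adipocyte means overlapped fully on CD arrays.

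The labelled tissue was borne out by 8 skeletal muscle markers, whose mean lay between 13.03 and 13.30 units on all 28 arrays, and of which only Myod1, a myogenic transcription factor, was called (-0.30). Slow fibre, fast fibre, adipocyte, red blood cell, endothelial, nerve sheath and lymphocyte markers had 0 called members with limma, which in lists this short is near the 3.88% of all genes. The 5 red blood cell markers measured nevertheless had a median difference of 0.40, with Hba-a1 and Hba-a2, which encode alpha globin, at 0.41 each and Hbb-b1, which encodes beta globin, at 0.40 (adjusted p = 0.286, 0.273 and 0.183). Their mean lay between 10.03 and 11.03 in the high strains (median 10.59) and between 9.28 and 10.90 in the low strains (median 10.34), and the groups overlapped widely. Alas2, an enzyme of haem synthesis, had 0.15, and Slc4a1, the red cell anion exchanger, -0.01. On HFD arrays the median difference of the 5 was 0.43, with Alas2 at 0.03 and Slc4a1 at -0.13, and the part of blood content in the other results was not tested. Slow fibre means ranged widely within both groups, from 8.82 to 10.91 in the high and from 8.77 to 10.75 in the low strains. With the slow fibre mean as a term 944 genes were called, and with the adipocyte mean 907.

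FOXO targets and genes of muscle atrophy were the list with the most calls: 14 of 21 measured members other than Pdk4 were higher in the high strains and 0 were lower, beside 0.99% and 2.89% of all genes. The median difference of the list was 0.24 units, against 0.00 over all genes tested. It was positive for 20 of 21 members, the exception being Foxo4 (-0.03, adjusted p = 0.788), and 10 of the 14 were called whichever array was left out. Within batch 1 the median was 0.28 and within batch 2 it was 0.25, again with 20 of 21 members positive in each, but batch 1 alone called 4 members and batch 2 alone 2. With the fibroblast mean as a term 2 members were called, Trim63 and Fbxo32, and the median was 0.17.

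The ubiquitin ligases that mark muscle proteins for the proteasome were among them. Trim63, also called MuRF1, lay between 12.388 and 13.516 units in the high strains (median 12.851) and between 11.613 and 12.928 in the low strains (median 12.105). The groups overlapped, but 11 of 14 low strains lay below every high strain. The difference was 0.81 ± 0.13 (SE, adjusted p = 0.000367). Fbxo32, also called atrogin-1, lay between 13.434 and 13.991 in the high strains (median 13.662) and between 12.838 and 13.653 in the low strains (median 13.207). Here 12 of 14 low strains lay below every high strain, and the difference was 0.48 ± 0.07 (adjusted p = 0.000183). Cblb, a further ubiquitin ligase, was higher by 0.45 and Fbxo21, an F-box protein of such ligases, by 0.25. Psmd11, a proteasome subunit, was higher by 0.22.

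Foxo1 and Foxo3, transcription factors that insulin signalling keeps out of the nucleus, were higher by 0.35 ± 0.09 (adjusted p = 0.0172) and 0.51 ± 0.11 (adjusted p = 0.00546). Foxo3 lay between 9.927 and 10.682 in the high strains (median 10.266) and between 9.156 and 10.455 in the low strains (median 9.818). The autophagy genes Gabarapl1 (0.51), Bnip3 (0.18) and Sqstm1 (0.20) rose with them. So did Eif4ebp1, a repressor of translation (0.60, adjusted p = 0.000285), Sesn1, an inhibitor of mTORC1 (0.52), Cdkn1a, the cell cycle inhibitor p21 (0.68), and Irs2, an insulin receptor substrate (0.24). The members not called were Fbxo30, Fbxo31, Ctsl, Gadd45a, Mstn, Usp14 and Foxo4, with differences from -0.03 to 0.24.

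**Figure D3:**
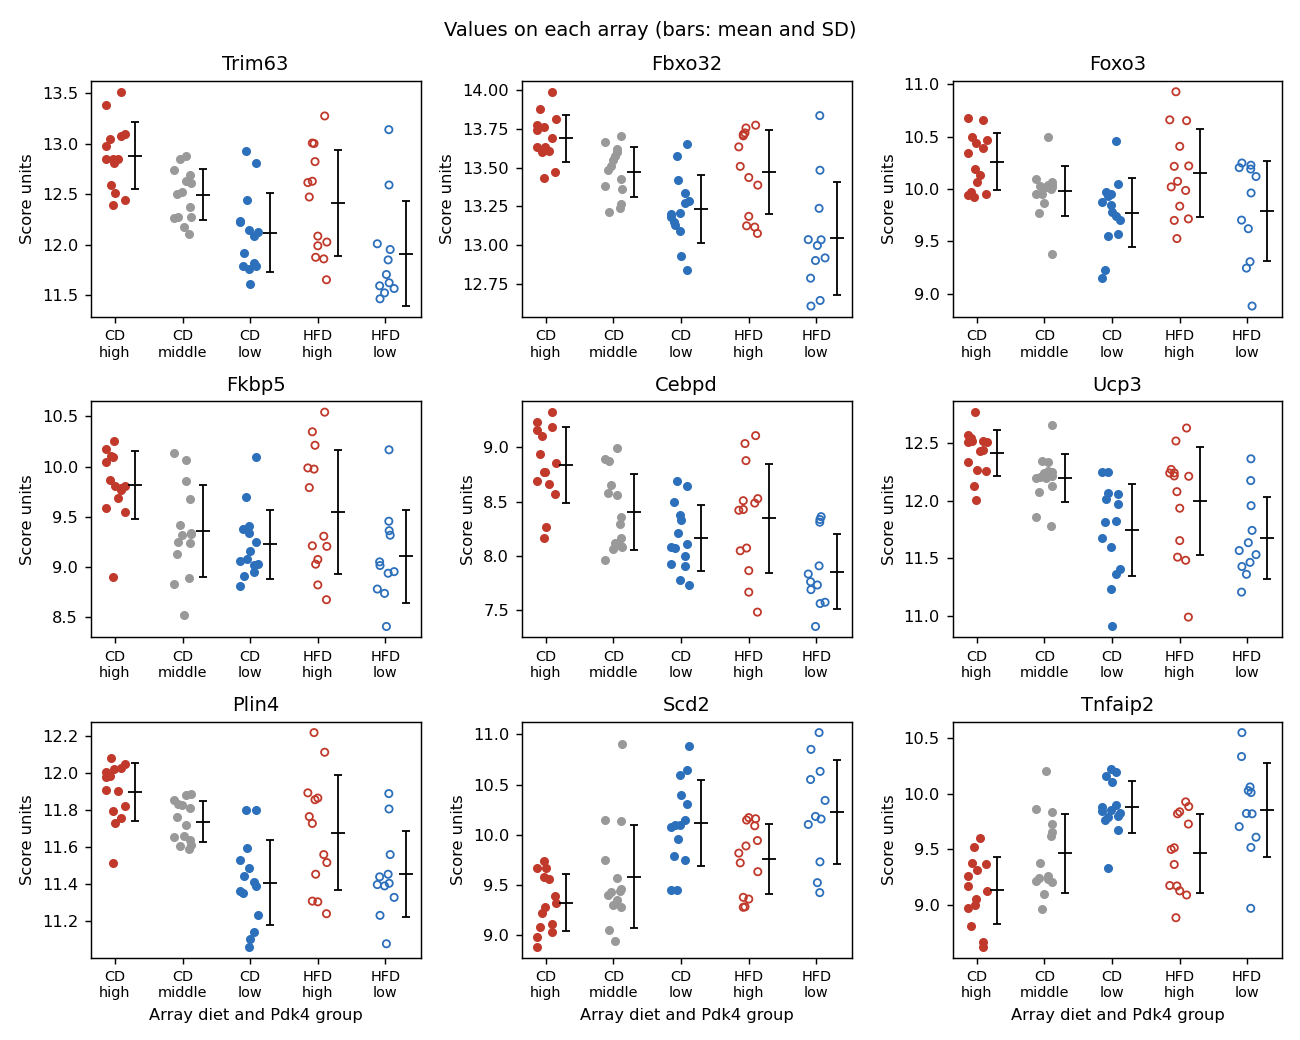
Score (units, vertical axis) of 9 genes on each array by diet and Pdk4 group (filled CD, open HFD; red high, grey middle, blue low), with the mean and SD as bars at the right of each column of points. On CD arrays the 7 genes Trim63 to Plin4 were higher, and Scd2 and Tnfaip2 lower, in the high strains, and the 14 middle arrays, which were not in the test, lay between or across both.

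Glucocorticoid-responsive genes came next in number, with 9 of 19 members higher (0.99% of all genes) and 0 lower, a median difference of 0.27 and 17 positive differences, and 6 of the 9 were called whichever array was left out. Batch 1 alone called 3 members and batch 2 alone 2. With the fibroblast mean as a term only Glul was called, and the median was 0.31. Fkbp5, a chaperone of the glucocorticoid receptor that the receptor induces, lay between 8.898 and 10.249 units in the high strains (median 9.809) and between 8.816 and 10.097 in the low strains (median 9.122). The ranges overlapped for most strains, with 3 of 14 high strains above every low strain. The difference was 0.63 ± 0.12 (adjusted p = 0.00204). Cebpd, a transcription factor, lay between 8.160 and 9.323 in the high strains (median 8.813) and between 7.731 and 8.692 in the low strains (median 8.097), a difference of 0.71 ± 0.11 (adjusted p = 0.00042).

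Ddit4, an inhibitor of mTORC1, differed by 0.68 (adjusted p = 0.0242), Glul, glutamine synthetase, by 0.62, Mt1, a metallothionein, by 0.51 and Per1, a clock gene with glucocorticoid response elements, by 0.49. The transcription factors Zbtb16, Klf9 and Klf15 were higher by 0.47, 0.32 and 0.27. Not every member was called: among those without a call, Mt2 had 0.57, Tsc22d3 0.20 (adjusted p = 0.13), Sgk1 -0.07 and Dusp1 -0.12. Nr3c1, the glucocorticoid receptor itself, had a difference of -0.10 (adjusted p = 0.28).

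PPAR-responsive lipid genes gave 6 of 16 members higher (0.99% of all genes) and 0 lower, with a median of 0.20, and all 6 were called whichever array was left out. Batch 1 alone called 4 members and batch 2 alone 1. With the fibroblast mean as a term 3 members were called, Ucp3, Plin4 and Angptl4, and the median was 0.32. Ucp3 lay between 12.001 and 12.764 units in the high strains (median 12.471) and between 10.912 and 12.247 in the low strains (median 11.822). In this gene 12 of 14 high strains lay above every low strain, and the difference was 0.70 ± 0.11 (adjusted p = 0.00042). Plin4, a coat protein of lipid droplets, lay between 11.514 and 12.079 in the high strains (median 11.943) and between 11.060 and 11.801 in the low strains (median 11.399), a difference of 0.51 ± 0.07 (adjusted p = 0.000178). The acyl-CoA thioesterases Acot2 and Acot1 were higher by 0.63 and 0.42, and Pnpla2, the lipase that starts triglyceride breakdown, by 0.35. Angptl4, an inhibitor of lipoprotein lipase, had 0.38 and was not called (adjusted p = 0.134), and neither were Cd36 (0.15), Lpl (-0.03) or Fabp3 (-0.01).

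Of 25 enzymes of fatty acid oxidation 0 passed with limma in either direction, which is near the 3.88% of all genes and no result about the list. Of the 25 members 10 had a positive difference and the median was -0.02. Cpt1b, the muscle carnitine palmitoyltransferase, differed by -0.01 (adjusted p = 0.974) and Acadl, a long-chain acyl-CoA dehydrogenase, by 0.03. Ppara and Ppard, which encode PPARs, differed by -0.10 and -0.02 and were not called either. Ppargc1a and Ppargc1b, coactivators of mitochondrial genes, were lower, at -0.19 and -0.26 units (adjusted p = 0.0396 and 0.0348), and so was Rxrg, a retinoid X receptor (-0.40). Lpin1, a phosphatidate phosphatase and coactivator, was higher by 0.31. Of the 16 nuclear receptors and coactivators, 1 was thus higher and 3 lower, beside 0.99% and 2.89% of all genes. With the fibroblast or the macrophage mean as a term 0 of the 16 were called, beside 38 and 339 of all 22334 genes. A 0 is near those shares and no result about the list. Under the fibroblast term Ppargc1a was at -0.12 (adjusted p = 0.71), Ppargc1b at -0.20 (0.603) and Rxrg at -0.26 (0.586).

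Of 13 genes of the PDH complex and its regulators other than Pdk4, 3 were called, beside 3.88% of all genes. Dlat, the E2 subunit (-0.15), and Pdp1, a phosphatase that reactivates the complex (-0.21), were lower, and Pdp2, the other such phosphatase (0.34), was higher. The other kinases Pdk1, Pdk2 and Pdk3 had differences of -0.03, 0.06 and 0.04 and were not called, and the median of the list was -0.08. With the fibroblast mean as a term 0 of the 13 were called, which is near the share of all genes (38 of 22334). Under it Pdp2 was at 0.45, Pdp1 at -0.22 and Dlat at -0.05.

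**Figure D4:**
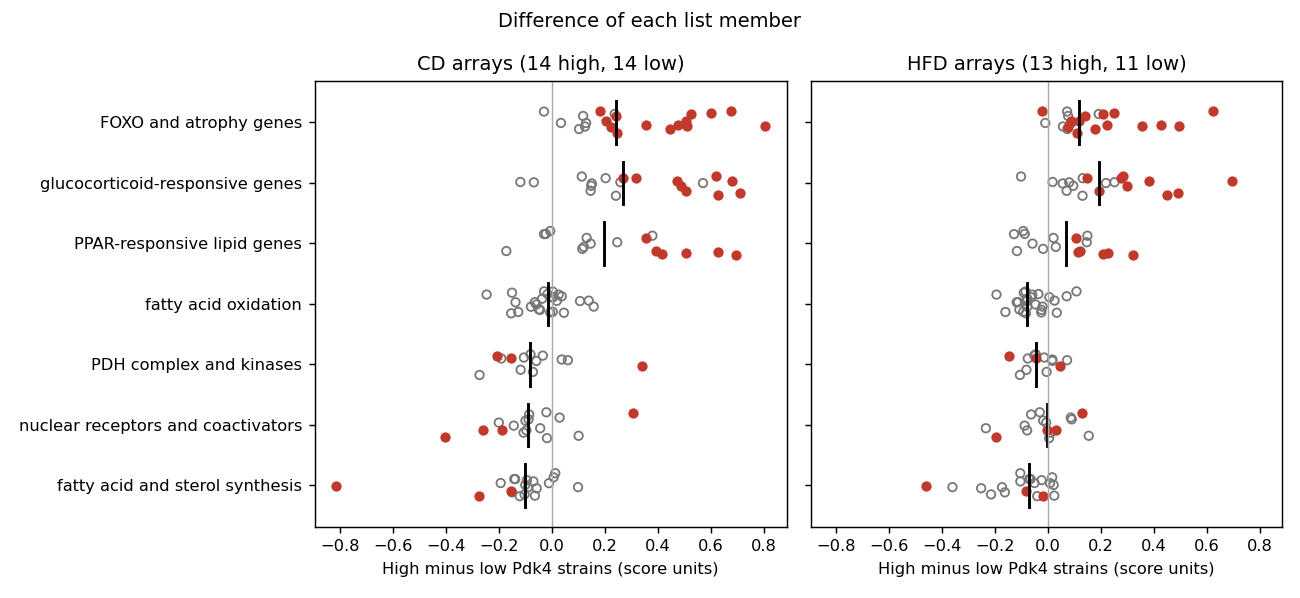
High minus low difference (score units, horizontal axis) of each member of 7 gene lists on CD arrays (left) and on HFD arrays (right). Red points were called on CD arrays, open points were not, and black bars are list medians, which were 0.24, 0.27 and 0.20 on CD for the upper 3 lists and from -0.10 to -0.02 for the lower 4.

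Of 19 genes of fatty acid and sterol synthesis 0 were higher and 3 lower, beside 2.89% of all genes, and the median was -0.10. With the fibroblast mean as a term 0 were called, which is near the share of all genes (38 of 22334), while Scd2 stayed at -0.80 and Srebf1 at -0.26. Scd2, a stearoyl-CoA desaturase, lay between 8.885 and 9.741 units in the high strains (median 9.301) and between 9.447 and 10.882 in the low strains (median 10.102). The groups shared only the stretch between 9.447 and 9.741, and the difference was -0.81 ± 0.13 (adjusted p = 0.00042). Srebf1, a regulator of lipid synthesis that insulin induces, had -0.27 (adjusted p = 0.0311). Scd1, the related desaturase, had 0.10 (adjusted p = 0.777).

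Among all 867 calls, the 10 largest positive differences belonged to Depp1 (1.55), Odf3l2 (0.95), Tmem140 (0.81), Trim63 (0.81), Peg3 (0.73), Tmem37 (0.72), Cebpd (0.71), Ucp3 (0.70), Ddit4 (0.68) and Cdkn1a (0.68). Depp1, a FOXO target listed in the deposited table under the older symbol 8430408G22Rik, lay between 9.222 and 11.630 units in the high strains (median 10.732) and between 8.433 and 10.625 in the low strains (median 9.011). Of the 14 high strains 9 lay above every low strain (adjusted p = 0.000292). Odf3l2 rested less on a clean separation, as 1 low strain reached 11.129 and exceeded all high strains, which stopped at 10.735.

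The 10 largest negative differences belonged to Nmrk2 (-1.08), Scd2 (-0.81), Tnfaip2 (-0.80), 6430571L13Rik (-0.59), Plcd4 (-0.58), Igfbp5 (-0.57), Filip1l (-0.57), Tfrc (-0.56), Cd209f (-0.56) and Ky (-0.55). Nmrk2, a kinase that makes the NAD precursor nicotinamide mononucleotide and is listed as Itgb1bp3, lay between 10.076 and 11.830 in the high strains (median 10.873) and between 11.109 and 12.387 in the low strains (median 11.970). Tnfaip2, a gene first found as induced by tumour necrosis factor, had the smallest adjusted p of all genes tested (4.75e-06). It lay between 8.625 and 9.602 in the high strains (median 9.152) and between 9.334 and 10.222 in the low strains (median 9.848), and 13 of 14 low strains lay above every high strain. Under the fibroblast term Cd209f, a C-type lectin, was at -0.17 (adjusted p = 0.817) and Filip1l at -0.70 (0.281). Nmrk2 was at -0.96 (0.103), Igfbp5 at -0.49 (0.0962), Plcd4 at -0.72 (0.0783), Scd2 at -0.80 (0.0708) and Tfrc at -0.60 (0.0632). None of these was called under the term, while Ky (-0.63, adjusted p = 0.0376), 6430571L13Rik (-0.66, 0.0156) and Tnfaip2 (-0.74, 0.0156) were. Tfrc is the transferrin receptor, through which cells take up iron, and Igfbp5 binds insulin-like growth factors.

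Apart from Pdk4, 1 of 22334 genes had groups that did not overlap at all, and it was looked for after the values were seen. This was Cdk4, a cyclin-dependent kinase, between 10.680 and 10.840 in the high and between 10.857 and 11.010 in the low strains. Its difference was small, at -0.16 ± 0.03 (adjusted p = 0.00158).

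The 5 genes whose values followed Pdk4 most closely over all 42 CD arrays were Acot2 (Pearson r = 0.901), Ucp3 (0.878), Plin4 (0.833), Retreg1 (0.826, listed as Fam134b) and Tacc2 (0.823). All 5 were also called, with Retreg1, an autophagy receptor of the endoplasmic reticulum, at 0.49 and Tacc2, a centrosomal protein, at 0.59. These r values describe the points, which share an array and its scaling and include the arrays that formed the groups.

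The middle 14 CD arrays were not in the test, although they too were placed by Pdk4. In Trim63 the middle arrays ran from 12.108 to 12.875 with a median of 12.512, and in Scd2 from 8.945 to 10.900 with a median of 9.437.

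Genes next to Pdk4 on its chromosome were also looked at. Of the 19 measured genes among the 10 protein-coding genes on either side, 4 were called, beside 3.88% of all genes, and 1 of these was higher. Asb4, the nearest neighbour on one side, had 0.33 (adjusted p = 0.0154). Col1a2 (-0.21), Sdhaf3 (-0.18) and C1galt1 (-0.25) were lower. Col1a2 is one of the fibroblast markers that moved with the groups. With their mean as a term it was at 0.03 (adjusted p = 0.961). That mean includes Col1a2 itself, which draws its value toward 0, so nothing is read from it. Dync1i1, the nearest on the other side, had 0.04 and was not called.

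Promoter letters were also counted over the genes called. A window was at hand for 176 of the 221 genes called higher and for 511 of the 646 called lower. GTAAACA stood in 10 of the higher genes (5.68%) and in 8 of the lower (1.57%), beside 3.13% of all genes. AGAACA stood in 14.2% and 10.6% and AGGTCA in 15.3% and 12.3%. Motifs were counted as present or absent, on either strand, and no test was made.

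To ask whether the same strains differed on arrays that Pdk4 had not ranked, the high and low strains were compared on HFD arrays. Of 22335 genes 0 were called with limma (0.0%), and 1175 (5.26%) had an unadjusted p below 0.05. No single gene therefore passed the correction on these 24 arrays, and the HFD differences are given as values. The HFD pools came from other mice of the same strains.

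Signs were mostly shared. Of the 221 genes called higher on CD, 195 (88.2%) had a positive difference on HFD arrays, beside 41.1% of all genes. Of the 646 called lower, 579 (89.6%) had a negative one, beside 58.8% of all genes. The genes had been selected for their CD difference, which favours large values there, so sizes on both diets are given side by side only. The median difference of the higher genes was 0.25 on CD and 0.13 on HFD arrays, and that of the lower genes was -0.22 and -0.07. An unadjusted p below 0.05 in the same direction was found for 65 (29.4%) of the higher and 94 (14.6%) of the lower genes. Whether the differences themselves changed with diet was not tested.

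**Figure D5:**
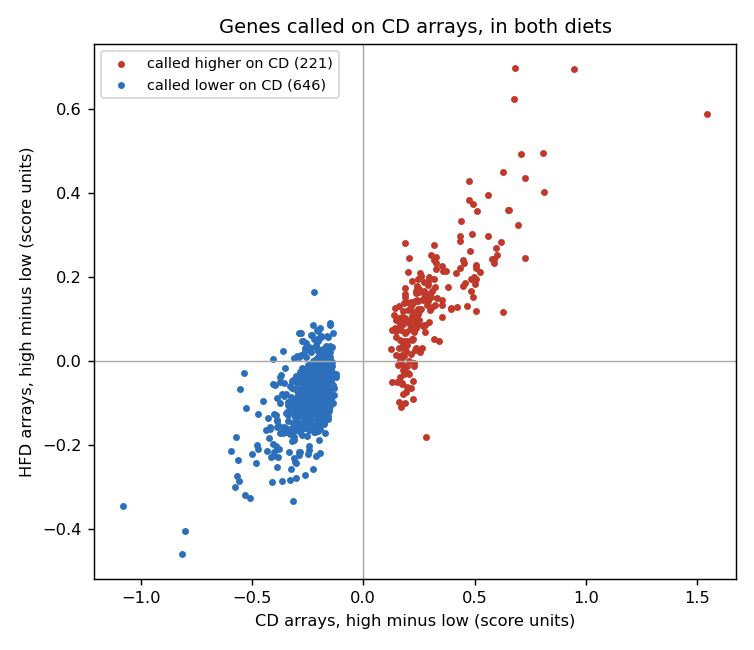
Each point is 1 of the 867 genes called on CD arrays, with its high minus low difference on CD arrays (score units, horizontal) against that on HFD arrays (score units, vertical). Of the 221 red genes 195 lay above 0 on HFD arrays and of the 646 blue genes 579 lay below 0.

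On HFD arrays most FOXO, atrophy and glucocorticoid genes had positive differences, beside 41.1% of all genes. In the FOXO and atrophy list 19 of 21 members were positive with a median of 0.12, and 13 of the 14 called on CD kept their sign, Bnip3 (-0.02) being the exception. In the glucocorticoid list 18 of 19 were positive with a median of 0.19, beside a median of -0.02 over all genes. Fbxo32 lay between 13.076 and 13.775 units in the 13 high strains (median 13.509) and between 12.607 and 13.837 in the 11 low strains (median 12.998). All 13 high strains lay above the median of the low strains (0.43 ± 0.12, p = 0.0014). The same was so for Zbtb16 (0.38, p = 0.00226) and Ddit4 (0.70, p = 0.00353).

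For Trim63 the HFD difference was 0.50 (p = 0.0168), for Cebpd 0.49 (p = 0.00554), for Foxo3 0.36 (p = 0.0422) and for Fkbp5 0.45 (p = 0.0372). Cdkn1a had 0.62 (p = 0.0108). The adjusted p of each of these was above 0.05.

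Of the PPAR list, all 6 genes called on CD were positive on HFD arrays, and the median of the 16 members was 0.07. Ucp3 had 0.32 (p = 0.0493) and Plin4 0.23 (p = 0.0414), while Acot2, the gene most like Pdk4 on CD, had 0.12 (p = 0.267). Scd2 lay between 9.279 and 10.171 in the high strains (median 9.818) and between 9.425 and 11.017 in the low strains (median 10.183), and all 13 high strains lay below the median of the low ones (-0.46, p = 0.00814). Tnfaip2 had -0.40 (p = 0.00922) and Nmrk2 -0.35 (p = 0.179).

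Ppargc1a, Ppargc1b, Srebf1 and Ky, called lower on CD, were close to 0 on HFD arrays, at -0.00, 0.03, -0.02 and -0.07. The fibroblast markers were again all negative, with a median of -0.10, and 7 of 8 macrophage markers were negative. Their means overlapped widely between the groups, from 10.17 to 10.59 in high and from 10.34 to 10.72 in low strains for fibroblasts. Adipocyte markers, of which 5 of 12 had a positive difference on CD, were negative for all 12 members on HFD arrays (median -0.21), as were all 10 slow fibre markers (median -0.22), and none of either list was called.

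Among genes called on CD with the same direction, the 10 with the smallest HFD p were Tut1, Timm8a1, Clec3b, Cacng1, Fbxo32, C10orf26, Ipo13, Serpinb1a, Commd3 and Tbc1d1. Tbc1d1, a regulator of glucose transporter traffic in muscle, had 0.44 on CD and 0.33 on HFD arrays (p = 0.00215). Cacng1, a subunit of the muscle calcium channel, had 0.20 and 0.24, and Ipo13, an importin, 0.26 and 0.20. Timm8a1, which helps import proteins into mitochondria, had -0.23 and -0.26, and Clec3b, the plasma protein tetranectin, -0.21 and -0.23. Under the fibroblast term on CD, only Fbxo32 (adjusted p = 0.0179) and Tbc1d1 (0.0458) of these 10 were still called. Timm8a1 was at -0.11 (adjusted p = 0.818), Clec3b at -0.09 (0.813) and Serpinb1a at -0.06 (0.931). Tut1 was at 0.22 (0.331), Cacng1 at 0.22 (0.374), C10orf26 at 0.19 (0.531), Ipo13 at 0.29 (0.0824) and Commd3 at -0.28 (0.117). Tut1, a terminal uridylyltransferase, had the smallest HFD p, 0.000556, with 0.19 on CD and 0.28 on HFD arrays.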

How the data were processed

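Quadriceps RNA pools were profiled by the authors on Affymetrix Mouse Gene 1.0 ST arrays, and the submitters' processing notes name Affymetrix Expression Console. The deposited values are a score per probeset, scaled to a mean of 8.0 with an SD of 2.0 on each array. The log base, the summarization and any batch correction are not given in the sources used here. The number of arrays limits the precision. Of 35556 probesets, 26221 had a symbol, for 22335 genes, and a gene with several probesets was represented by that of highest mean. Symbols were updated through RefSeq (GRCm38.p6).

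High and low Pdk4 strains were compared with limma (version 3.58.1, lmFit and eBayes in R 4.3.3) on the scores, with batch as a term, and with Benjamini-Hochberg adjustment over all genes tested, which leaves Pdk4 out on CD. A gene was called at an adjusted p below 0.05. Although the tests had been planned for log values, the same model was used on the scores. The fit was tested on simulated data. The permutation test of group means and the ranks for rho used scipy 1.17.1. Correlations between diets and their permutation p used numpy 2.4.6, and r with Pdk4 over all CD arrays used R. The strains, groups and gene lists were chosen with earlier results of these data known, so no list is independent evidence of its direction. The genes named were Pdk4, the 10 largest calls in each direction on CD, the 10 called genes of smallest HFD p with the same direction, members of the lists, and the 5 most like Pdk4. Some list members count in the totals, and their own values are not reported here. Cdk4, the neighbours of Pdk4 and the fits without the strains under 14 units and with clock, macrophage or fibroblast terms were chosen after seeing the data. The t-test named in the study's methods was run as an alternative and is called the methods' t-test.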

Additional observations from a re-analysis of the deposited data

How the results depend on the processing

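On CD arrays the count of 867 calls (221 higher, 646 lower) became 106 in batch 1 alone (58 higher, 48 lower, from 5 and 8 arrays), 166 in batch 2 alone (48 higher, 118 lower, from 9 and 6 arrays), 489 with 10 against 10 strains (222 higher, 267 lower), 470 with 21 against 21 (145 higher, 325 lower) and 448 with Pdk4 as a continuous term over all 42 arrays (199 higher, 249 lower). It became 339 with the macrophage term and 38 with the fibroblast term, both added after seeing the data. Leaving out 1 array at a time gave 502 to 962, the lowest without BXD44. Without BXD44 the FOXO and atrophy list had 12 calls and the glucocorticoid list 6. Of the genes named by rule, Tmem37, Ddit4, Filip1l, Tut1, Timm8a1, Clec3b, Cacng1, C10orf26, Serpinb1a, Commd3, Fbxo21, Gabarapl1, Bnip3, Irs2, Per1, Klf9, Dlat, Pdp1, Pdp2, Ppargc1a, Ppargc1b, Lpin1, Srebf1, Txnip, Insr, Clock, Chac1, Myod1, Csf1r, Col1a2 and Fbn1 lost their call without at least 1 of BXD43, BXD44, BXD68 and BXD84. The other settings gave 699 (without the strains under 14 units) to 1222 (dim genes left out, 11167 tested), among them 971 by the methods' t-test, whose unadjusted count was 4121. On HFD arrays the count was 0 in every setting run but 10 against 10 strains, where it was 1. The clock, macrophage and fibroblast terms were not run there. The Pdk4 difference on HFD arrays, 0.14, turned to -0.0204 in batch 2 alone and ran from 0.11 to 0.19 when 1 array was left out. The causes were not tested. Only 1 Pdk4 probeset was on the array, so no other was tried. No paired analysis was possible because the groups hold different strains.

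All 30 of the largest and best supported single genes kept their direction in each setting that tested them. The fibroblast term left 10 of them called, batch 2 alone 9 and batch 1 alone 12. Precision is limited by 1 pool per strain and diet: strain, cage and day of sacrifice cannot be told apart, and genes that respond to a fast were read at 1 time only. A score of unknown base gives no fold.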

Other observations

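Counts for other gene groups that a fast can move stand beside the 3.88% of all genes called on CD arrays. Of 22 genes of glucose uptake, glycolysis and insulin signalling, 2 were higher on CD arrays, Txnip, an inhibitor of glucose uptake (0.21, adjusted p = 0.0284), and Insr, the insulin receptor (0.15, adjusted p = 0.0451), and the median was 0.00. Slc2a4, the insulin-responsive glucose transporter, had 0.05 (adjusted p = 0.754), and the glycolytic genes Pfkm, Aldoa and Ldha had 0.07, 0.05 and -0.05.

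Of 18 clock genes, Per1 was higher (0.49) and Clock lower (-0.16), while Arntl and Dbp, which peak at opposite times of day, had 0.09 and -0.28 and were not called. A clock term, the mean of Arntl and Npas2 minus the mean of Dbp, Tef, Per3 and Nr1d2, gave 887 calls. This setting was chosen after seeing the data. Of 14 genes of the integrated stress response only Chac1, an enzyme of glutathione breakdown, was called (0.58, adjusted p = 0.0221), and Asns, Trib3 and Ddit3 had 0.03, 0.11 and -0.10. None of 11 immediate early genes was called with limma, and Fos, Jun and Egr1 had 0.09, 0.21 and -0.12.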
